A study of Sus scrofa with 16 samples.

Results

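Leukocyte surface receptors, a ligand and an adaptor were followed across 4 tissues of the pig. The genes were CD4, TYROBP, LY49, CCR9, IL12RB2, PDCD1LG2 and TLR10. They were picked out by their symbol in the array's annotation, but with earlier results of these data known. They account for 7 of 20736 rows of the deposited table, 1 row each, and for 7 of the 178 rows that carry a gene symbol. RNA came from liver, skeletal muscle (longissimus), uterine endothelium (the labels' name) and brain stem of 4 gilts, young female pigs of 165 days, with no treatment named. Each gilt formed a loop of 4 arrays with 2 dyes, and each tissue carried both the Cy3 and the Cy5 dye in its loop; the arrays held 20400 oligonucleotides of 70 bases. Total RNA extracted with TRIzol was amplified from its poly(A) end before the dyes were coupled, and arrays of a gilt share its RNA, so gilt and loop cannot be told apart. Each of the 16 arrays thus gave a log ratio between a pair of tissues of the same gilt. The 4 ratios of a loop were solved into 4 tissue values, each relative to the mean of that gilt. All values below are such relative values or their differences on a log2 scale, so they give no absolute level and do not compare 1 gene with another. Base 2 is inferred from the values. Ratios are taken to be Cy5 over Cy3, which is likely but not settled, and with the opposite sign every higher below would read lower.

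These proteins belong to different steps of the leukocyte response. CD4 is the co-receptor with which helper T cells bind MHC class II. LY49, also named KLRA1, is a lectin-like receptor known from mouse natural killer cells, where its relatives bind MHC class I. TYROBP, also known as DAP12, is a transmembrane adaptor that carries an activating motif for receptors of natural killer and myeloid cells, and in mouse and human brain it is made by microglia. CCR9 is the receptor for the chemokine CCL25 and guides lymphocytes to the small intestine and thymocytes within the thymus. IL12RB2 is the signalling chain of the interleukin 12 receptor on activated T and natural killer cells. PDCD1LG2, or PD-L2, is a ligand of the inhibitory receptor PD-1 on dendritic cells and macrophages. TLR10 belongs to the Toll-like receptor family of TLR1, TLR2 and TLR6 and in human is known mainly from B cells. In whole tissue a lower value can mean fewer leukocytes or less RNA per cell, and these cannot be told apart.

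The 16 arrays had medians from -0.011 to 0.012 and SDs from 0.52 to 1.00. No spot intensities were used here, so rows near background cannot be told from bright ones, and the number of gilts limits the precision. Of 8 hepatocyte markers 6 were highest in liver, among them the acute phase protein CRP at 2.47 ± 0.28 (SD, n = 4), and these markers also served to choose the sign. PGLYRP2 of the same list was highest in brain stem, at 0.60 ± 0.098 against -0.17 ± 0.17 in liver. CYP8B1 had its highest mean in skeletal muscle (0.20 ± 0.13) without passing as highest. The myogenic factor MYOD1 was highest in skeletal muscle at 0.86 ± 0.12 and so was LMCD1 at 0.20 ± 0.16. MYH7, a myosin of slow fibres, missed the threshold in the F test of limma (adjusted p = 0.065). Its highest mean was in liver (0.19 ± 0.030), against -0.044 ± 0.095 in skeletal muscle. Of 4 neuronal and glial genes CEND1 was highest in brain stem (0.22 ± 0.075), while GLRB, a glycine receptor subunit, was lowest there (-0.26 ± 0.11). GAD2 had its highest mean there (0.25 ± 0.24) without passing as highest, and GAD1 did not pass the F test. The only rows of endothelial, stromal or epithelial markers were those of CAV1, OXTR and S100A11, none specific to endothelium. CAV1 (1.09 ± 0.35) and S100A11 (1.91 ± 0.25) were highest in uterine endothelium, whereas OXTR was highest in skeletal muscle (0.35 ± 0.093) and stood at -0.18 ± 0.11 in uterine endothelium. Of the 29 leukocyte markers listed, CYBA, the light chain of the phagocyte cytochrome b558, was the only one with a named row. A single row does not measure leukocyte content. CYBA stood at -0.18 ± 0.15 in liver, -0.31 ± 0.19 in skeletal muscle, 0.81 ± 0.17 in uterine endothelium and -0.31 ± 0.083 in brain stem. It passed the test as highest in uterine endothelium, and its part in the results below was not tested.

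All 7 genes differed among the 4 tissues in the F test of limma (adjusted p between 2.4e-04 and 0.029). So did 61.2% of all rows, 12699 of 20736, and 130 of the 178 named rows. The differences of the 7 genes were small. The range from the lowest to the highest tissue mean was 1.00 for TYROBP, 0.83 for TLR10, 0.65 for CCR9, 0.47 for LY49, 0.39 for IL12RB2, 0.27 for CD4 and 0.26 for PDCD1LG2. Their median, 0.47, lay near the median of 0.37 over all rows and of 0.40 over the named rows. The range of TYROBP was above that of 81.5% of all rows and that of PDCD1LG2 above 34.9%. Without gilt 3 only 4 of the 7 passed, TYROBP, LY49 and PDCD1LG2 being lost, while CD4 and PDCD1LG2 were lost without gilt 2 or gilt 4, and CD4 and TYROBP without gilt 1. The whole table lost calls too, with 10951, 9911, 8870 and 10242 rows passing without gilts 1, 2, 3 and 4, against 12699 with all gilts.

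**Figure D1:**
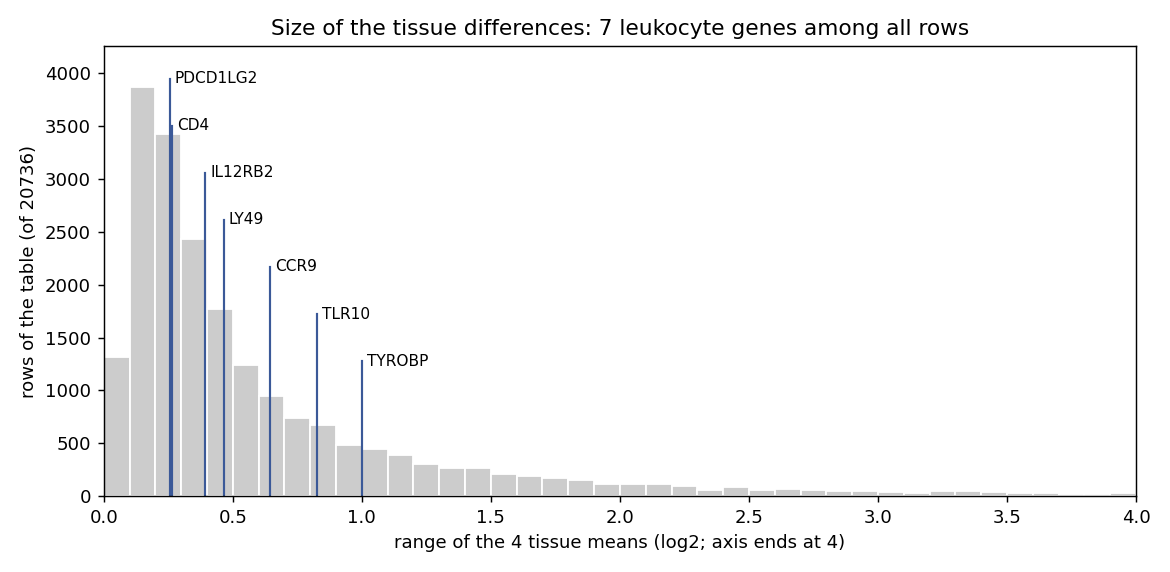
Number of rows of the table (vertical axis) by the range of the 4 tissue means on the log2 scale (horizontal axis, bins of 0.1), with a line for each of the 7 genes; 207 rows with a range above 4 lie beyond the axis. The 7 genes spread from 0.26 to 1.00, through the body of the distribution and not in its tail; line heights only separate the names.

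The tissues in which the genes were high did not coincide. By their means, TLR10, LY49, CCR9 and IL12RB2 were highest in brain stem, CD4 and PDCD1LG2 in liver and TYROBP in uterine endothelium. Over all rows the highest mean was that of brain stem in 33.3%, of liver in 19.9% and of uterine endothelium in 24.8%. The lowest mean was that of uterine endothelium for CD4, LY49, CCR9 and IL12RB2, against 24.7% of all rows, and of skeletal muscle for TYROBP, PDCD1LG2 and TLR10, against 23.8%. With 7 genes these counts are a description. A gene was called highest or lowest only when its tissue passed the test against each of the other 3. By that rule LY49 and TLR10 were highest in brain stem (background 9.7%), CCR9 and IL12RB2 lowest in uterine endothelium (background 0.617%) and PDCD1LG2 lowest in skeletal muscle (background 0.675%). CD4 and TYROBP met no such call.

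Over the 6 pairs of tissues, 19 of 42 differences passed (limma, adjusted over all rows), against 32.5% of all differences. In liver minus brain stem 3 genes passed, against 37.6% of all rows, with CD4 higher in liver (21.1% of rows were) and LY49 and TLR10 lower (16.5%). In liver minus skeletal muscle PDCD1LG2 alone passed, against 26.1% of rows, and was higher in liver (13.3%). In liver minus uterine endothelium CD4, CCR9 and IL12RB2 passed, against 24%, all higher in liver (12.1%). LY49, PDCD1LG2 and TLR10 passed in skeletal muscle minus brain stem, against 39.1%, and were lower in skeletal muscle (17.7%). In skeletal muscle minus uterine endothelium, where 26.4% of rows passed, CCR9 and IL12RB2 were higher (13.3%) and TYROBP and PDCD1LG2 lower in skeletal muscle (13.1%). In uterine endothelium minus brain stem, where 41.8% of rows passed, TYROBP was higher (22.7%) and LY49, CCR9, IL12RB2 and TLR10 were lower in uterine endothelium (19.1%).

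That last pair had 4703 higher and 3959 lower calls over all rows, and the split depended on centring. With each tissue centred on its most frequent value it had 5561 and 2750, and the same number of the 7 genes passed. Counted without a fit, the 4 gilts of a pair of tissues did not overlap for 6 of the 7 genes in skeletal muscle minus uterine endothelium, against 34.7% of all rows. The other pairs had fewer, with 4 in uterine endothelium minus brain stem against 41.1%, 3 in skeletal muscle minus brain stem against 44.3% and 3 in liver minus skeletal muscle against 38.2%. There were 3 in liver minus uterine endothelium against 33.6% and 1 in liver minus brain stem against 42.7%.

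**Figure D2:**
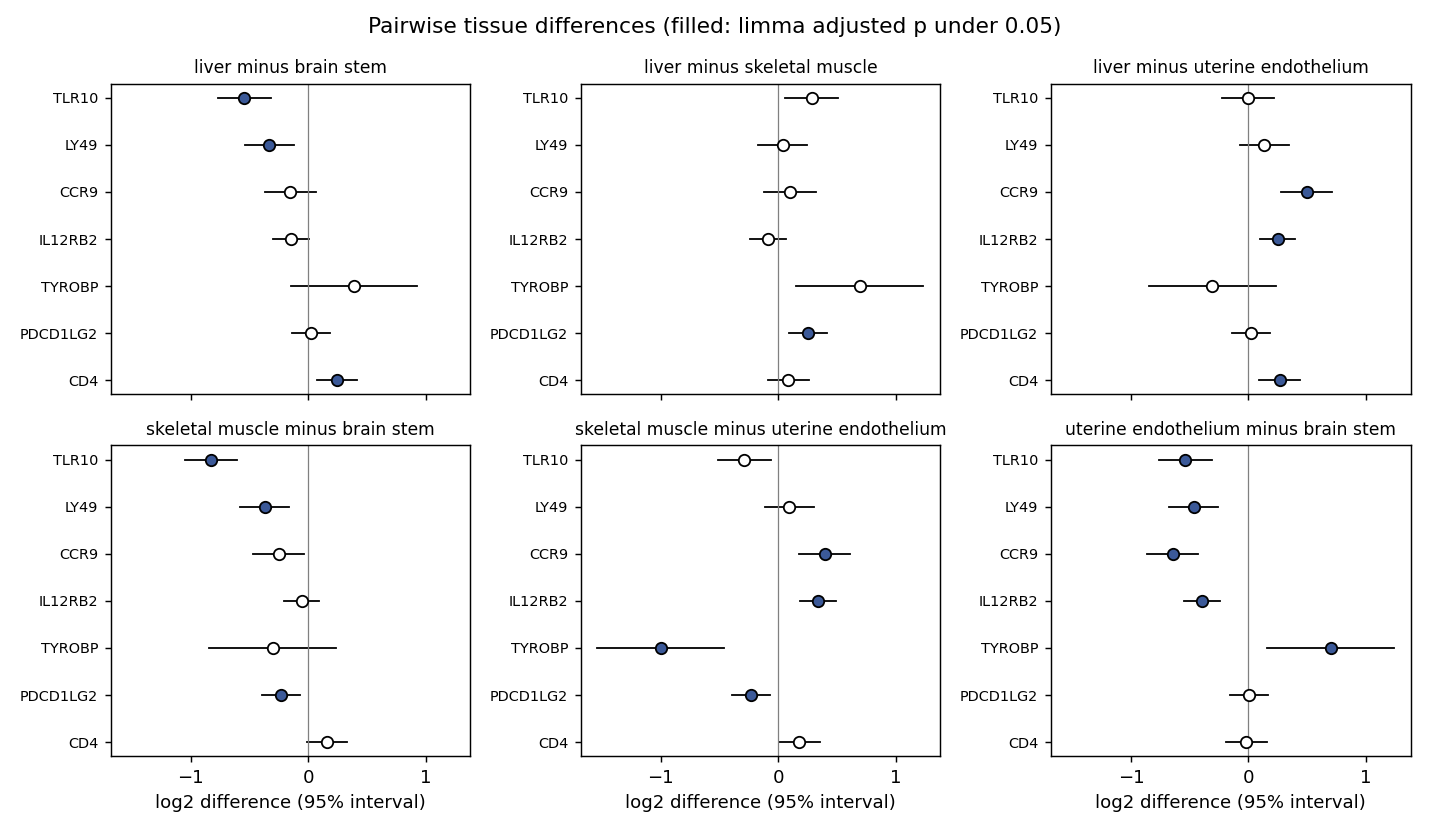
Differences between tissues for the 7 genes on the log2 scale, first tissue minus second, with 95% intervals from the limma fit; filled points passed at an adjusted p below 0.05. TLR10 and LY49 lie left of 0 in each panel set against brain stem, and TYROBP has the widest intervals, with -1.54 to -0.46 for skeletal muscle minus uterine endothelium.

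TLR10 (NCBI gene 594850) was highest in brain stem. It stood at 0.078, 0.019, -0.23 and -0.13 in liver of gilts 1 to 4 and at -0.28, -0.33, -0.29 and -0.51 in skeletal muscle. In uterine endothelium it stood at -0.13, -0.016, -0.13 and 0.029, and in brain stem at 0.33, 0.32, 0.65 and 0.61. The brain stem of every gilt lay above all 12 values of the other tissues, and skeletal muscle lay below liver, uterine endothelium and brain stem in every gilt. Skeletal muscle minus brain stem was -0.83 ± 0.10 (SE; limma adjusted p = 7.8e-05), with the same sign in 4 of 4 gilts. Liver minus brain stem was -0.54 ± 0.10 (limma adjusted p = 0.0014) and uterine endothelium minus brain stem -0.54 ± 0.10 (limma adjusted p = 0.0015). These 3 differences passed also without any 1 of the gilts and under each other alternative run. Liver and uterine endothelium could not be separated, at -0.0054 with a 95% interval of -0.23 to 0.22. Liver minus skeletal muscle, 0.28 (limma adjusted p = 0.062), and skeletal muscle minus uterine endothelium, -0.29 (limma adjusted p = 0.056), missed the threshold. They passed with arrays scaled to 1 spread, at 0.31 and -0.32, and with quantile normalization, at 0.39 and -0.38.

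LY49 (NCBI gene 397612) followed the same order for brain stem with smaller sizes. Its values were 0.080, 0.073, -0.17 and -0.14 in liver of gilts 1 to 4 and -0.073, -0.040, -0.085 and -0.12 in skeletal muscle. They were -0.28, -0.10, -0.23 and -0.088 in uterine endothelium and 0.27, 0.068, 0.48 and 0.35 in brain stem. Brain stem overlapped with liver, where gilts 1 and 2 stood just above the brain stem of gilt 2, and it lay above every value of skeletal muscle and uterine endothelium. Uterine endothelium minus brain stem was -0.47 ± 0.095 (SE; limma adjusted p = 0.0025), with the same sign in 4 of 4 gilts. Skeletal muscle minus brain stem was -0.37 ± 0.095 (limma adjusted p = 0.0094) and liver minus brain stem -0.33 ± 0.095 (limma adjusted p = 0.017), with 1 sign in 4 and 3 of 4 gilts. Liver, skeletal muscle and uterine endothelium did not differ past the threshold among themselves, with liver minus uterine endothelium at 0.13 (95% interval -0.076 to 0.34). Without gilt 3 the difference from brain stem was -0.23 for liver and -0.31 for skeletal muscle, and without gilt 4 it was -0.28 and -0.34, none of which passed.

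CCR9 (NCBI gene 414377) was lowest in uterine endothelium. It stood at 0.085, 0.087, 0.21 and 0.054 in liver of gilts 1 to 4 and at -0.18, 0.23, -0.039 and 0.030 in skeletal muscle. It stood at -0.35, -0.44, -0.31 and -0.44 in uterine endothelium and at 0.45, 0.12, 0.13 and 0.35 in brain stem. Uterine endothelium lay below every value of the other 3 tissues, while liver, skeletal muscle and brain stem overlapped. Uterine endothelium minus brain stem was -0.65 ± 0.10 (SE; limma adjusted p = 3.9e-04). Liver exceeded uterine endothelium by 0.49 ± 0.10 (limma adjusted p = 0.0040) and skeletal muscle by 0.40 ± 0.10 (limma adjusted p = 0.013), each in 4 of 4 gilts. The difference for skeletal muscle did not pass without gilt 2 (0.30) or gilt 4 (0.37). Skeletal muscle minus brain stem, -0.25 (limma adjusted p = 0.066), turned in gilt 2, the only gilt with muscle above brain stem, and passed without that gilt at -0.37 and with gilt as a random block. CYBA was highest where CCR9 was lowest, and its part in this difference was not tested.

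IL12RB2 (NCBI gene 397178) shared the low value in uterine endothelium, and there the gilts were close together. The 4 gilts had -0.0072, 0.057, -0.020 and -0.019 in liver and 0.060, 0.17, 0.16 and -0.017 in skeletal muscle. They had -0.25, -0.22, -0.25 and -0.26 in uterine endothelium and 0.20, -0.00011, 0.10 and 0.29 in brain stem. All 4 uterine values lay below the 12 others, and the other 3 tissues overlapped. Uterine endothelium minus brain stem was -0.39 ± 0.069 (SE; limma adjusted p = 9.3e-04) and skeletal muscle minus uterine endothelium 0.34 ± 0.069 (limma adjusted p = 0.0042). Liver minus uterine endothelium was 0.25 ± 0.069 (limma adjusted p = 0.023) and did not pass without gilt 1 (0.25), gilt 2 (0.24) or gilt 3 (0.25). Liver minus brain stem was -0.15 (95% interval -0.30 to 0.0050) and skeletal muscle minus brain stem -0.056 (95% interval -0.21 to 0.095), neither past the threshold. Liver minus brain stem passed with the preceding row subtracted, at -0.19, and skeletal muscle minus brain stem turned to 0.028 without gilt 4.

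**Figure D3:**
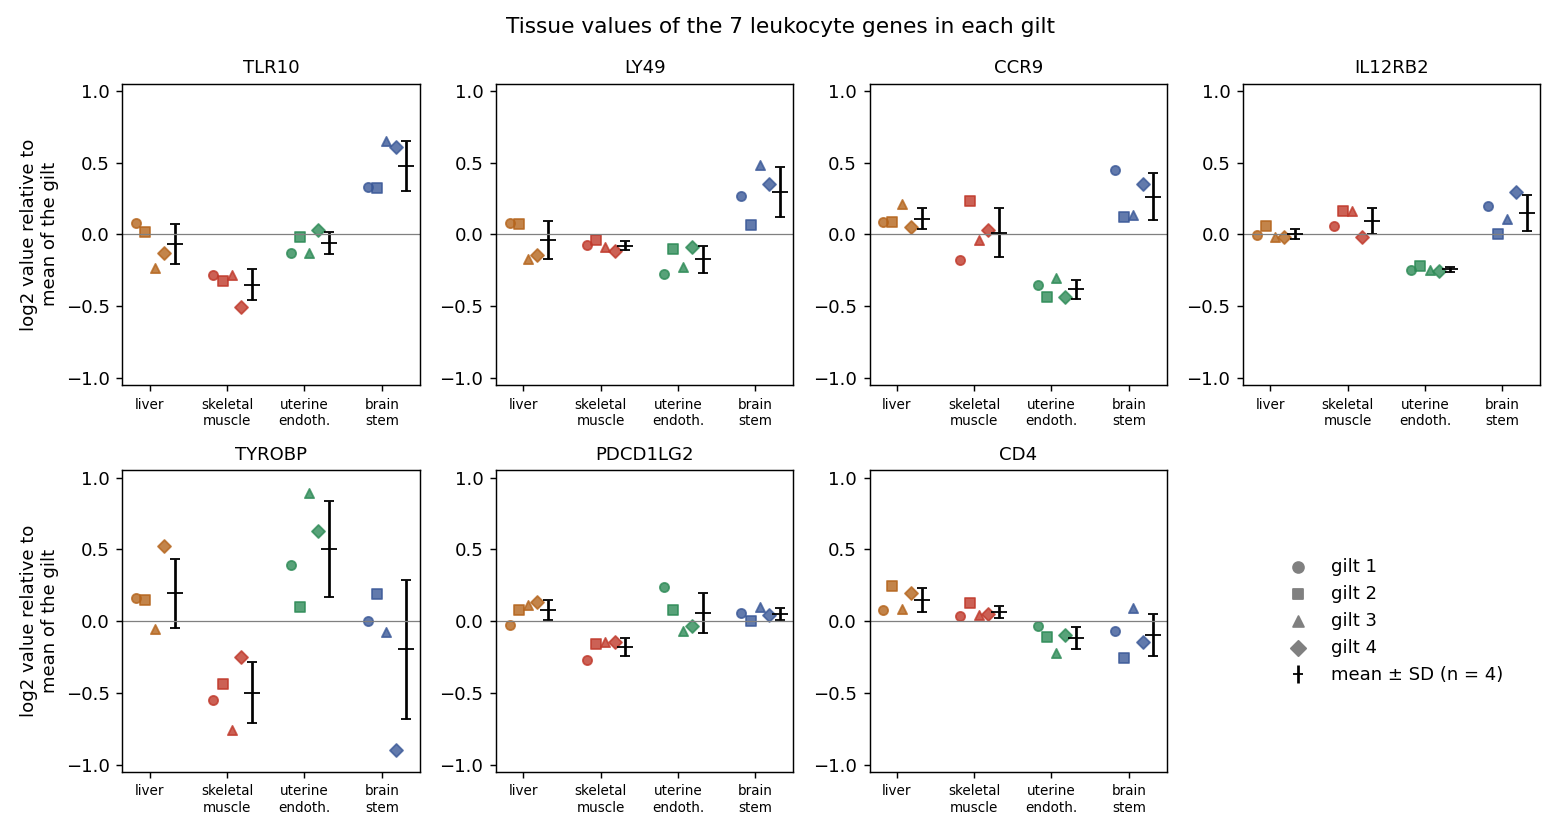
Value of each of the 7 genes in each tissue and gilt (log2, with 0 as the average of that gilt), with marker shapes for gilts 1 to 4 and a bar for mean ± SD over 4 gilts. TLR10 and LY49 are high in brain stem, CCR9 and IL12RB2 low in uterine endothelium, and the brain stem value of TYROBP in gilt 4, -0.90, stands below the other 3.

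TYROBP (NCBI gene 397405) had the widest range of means and also the widest spread between gilts. It stood at 0.16, 0.14, -0.056 and 0.52 in liver of gilts 1 to 4 and at -0.55, -0.44, -0.76 and -0.25 in skeletal muscle. It stood at 0.39, 0.10, 0.89 and 0.63 in uterine endothelium and at -0.0016, 0.19, -0.079 and -0.90 in brain stem. Skeletal muscle lay below every value of liver and uterine endothelium, whereas brain stem ranged from the level of liver in gilts 1 to 3 to the lowest value of all in gilt 4. Skeletal muscle was lower than uterine endothelium by 1.00 ± 0.25 (SE; limma adjusted p = 0.011), in 4 of 4 gilts. Uterine endothelium minus brain stem was 0.70 ± 0.25 (limma adjusted p = 0.040), with 0.39, -0.092, 0.97 and 1.53 in the 4 gilts, so gilt 2 had the opposite sign. Without gilt 4 that difference was 0.42 and did not pass, and it did not pass without gilt 1 (0.80) or gilt 3 (0.61). Skeletal muscle minus uterine endothelium missed the threshold without gilt 1 (-1.02) or gilt 3 (-0.79).

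Liver exceeded skeletal muscle for TYROBP in 4 of 4 gilts, by 0.71, 0.58, 0.70 and 0.78. The mean difference, 0.69 ± 0.25, missed the threshold (limma adjusted p = 0.060). It passed with scaled arrays (0.83), quantile normalization (0.85), no gilt block (0.81) or without gilt 4 (0.66), and at an unchanged size with a random block, a trended prior or rows of small SD left out. Skeletal muscle minus brain stem was -0.30 with a 95% interval of -0.84 to 0.24, and -0.62 without gilt 4 and -0.63 with quantile normalization, both past the threshold. The marker CYBA was highest in uterine endothelium, 0.81 ± 0.17, where TYROBP had its highest mean without passing against liver (-0.31, limma adjusted p = 0.41), and its r with TYROBP over the 16 values was 0.68. It had -0.90 with IL12RB2 and -0.80 with CCR9, which were lowest where CYBA was highest, and between -0.56 and 0.37 with the other 4 genes. The part of leukocyte content in the TYROBP differences was not tested.

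PDCD1LG2 (NCBI gene 574057) was lowest in skeletal muscle by a small margin. Its values were -0.026, 0.079, 0.11 and 0.14 in liver of gilts 1 to 4 and -0.27, -0.16, -0.15 and -0.14 in skeletal muscle. They were 0.24, 0.077, -0.069 and -0.035 in uterine endothelium and 0.059, 0.0018, 0.10 and 0.042 in brain stem. Every muscle value lay below the 12 others, which overlapped among themselves. Liver minus skeletal muscle was 0.26 ± 0.074 (SE; limma adjusted p = 0.023). Skeletal muscle minus uterine endothelium was -0.23 ± 0.074 (limma adjusted p = 0.037) and skeletal muscle minus brain stem -0.23 ± 0.074 (limma adjusted p = 0.027). Liver, uterine endothelium and brain stem were within 0.025 of each other, and the 95% interval of uterine endothelium minus brain stem was -0.16 to 0.16. Skeletal muscle minus uterine endothelium lost its call without gilt 1 (-0.14), 2 (-0.23), 3 (-0.29) or 4 (-0.27), and the other 2 lost theirs without gilt 2 (0.26 against liver, -0.26 against brain stem), 3 (0.25, -0.23) or 4 (0.25, -0.25). Skeletal muscle minus brain stem was -0.19 and not past the threshold once tissues were centred on that most frequent value.

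The unnamed row just before PDCD1LG2 in the table was high in uterine endothelium, with a mean of 1.03 against -0.55 in brain stem. With a share of the preceding row subtracted, skeletal muscle minus uterine endothelium for PDCD1LG2 was -0.044 and no longer passed, while liver minus uterine endothelium was 0.24 and uterine endothelium minus brain stem -0.25, both past the threshold. That share, a slope of 0.16, was estimated over 461 rows that follow a row with a tissue mean of at least 2. For the other 6 genes the preceding row had no tissue mean beyond 0.32 in size, and no call of theirs was lost by the subtraction.

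CD4 (NCBI gene 404704) had its highest mean in liver. It stood at 0.076, 0.25, 0.083 and 0.19 in liver of gilts 1 to 4 and at 0.034, 0.12, 0.046 and 0.051 in skeletal muscle. It stood at -0.037, -0.11, -0.22 and -0.095 in uterine endothelium and at -0.072, -0.26, 0.091 and -0.15 in brain stem. Liver and skeletal muscle were above 0 in all gilts and uterine endothelium below 0 in all gilts, while brain stem was above 0 in gilt 3 only. Liver exceeded uterine endothelium by 0.27 ± 0.079 (SE; limma adjusted p = 0.030) with no overlap and in 4 of 4 gilts. Liver minus brain stem was 0.25 ± 0.079 (limma adjusted p = 0.029), in 3 of 4 gilts. The first difference did not pass without gilt 1 (0.32), 2 (0.23), 3 (0.25) or 4 (0.26), nor the second without gilt 1 (0.28), 2 (0.16) or 4 (0.21). Skeletal muscle minus uterine endothelium, 0.18, missed the threshold (limma adjusted p = 0.12) although no gilts overlapped. Liver and skeletal muscle differed by 0.086 (95% interval -0.087 to 0.26), and uterine endothelium and brain stem by -0.019 (95% interval -0.19 to 0.15).

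The arrays that hybridised a tissue pair directly bear on the solved values. For uterine endothelium and brain stem 3 such arrays existed. TLR10 read 0.59 and 0.040 for brain stem over uterine endothelium in gilts 1 and 2, and -0.57 for uterine endothelium over brain stem in gilt 4, where the dyes were exchanged. CCR9 read 1.09 and 0.74 for brain stem over uterine endothelium in gilts 1 and 2, and -0.79 with the dyes exchanged in gilt 4. TYROBP read -0.27 and 0.32 for brain stem over uterine endothelium in gilts 1 and 2, and 1.60 with the dyes exchanged in gilt 4. The sign thus held under either dye for TLR10 and CCR9 on these 3 arrays, and for TYROBP in gilts 1 and 4 but not in gilt 2. Between skeletal muscle and uterine endothelium, TYROBP read 1.06 and 2.00 for uterine endothelium over skeletal muscle in gilts 1 and 3 and -0.81 for skeletal muscle over uterine endothelium in gilt 4, 1 sign on all 3 arrays. CCR9 read 0.11 and -0.27 for uterine endothelium over skeletal muscle in gilts 1 and 3 and 0.46 for skeletal muscle over uterine endothelium in gilt 4, so the direct array of gilt 1 had the sign opposite to the solved difference and the other 2 had the same sign. For CD4 in liver minus brain stem 1 of 3 direct arrays also had the opposite sign, with 0.028 for brain stem over liver in gilt 3, and apart from these and TYROBP above no difference past the threshold had one.

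Around a closed loop the 4 ratios should sum to 0, apart from noise of the arrays, unless a gene responds to the dye. The mean of the 4 ratios was between 0.072 and 0.36 over the gilts for TYROBP, above 0 in all 4. It was between -0.0043 and 0.29 for CCR9 and between -0.30 and 0.13 for TLR10. For the other 4 genes no gilt exceeded 0.12 in size. None of the 7 passed limma's test of a dye effect over 16 arrays (background 0.974%, adjusted p between 0.37 and 0.92), and none had an unadjusted p below the 0.05 threshold, the smallest being 0.060 for CCR9. Arrays and not gilts were the replicates of that test.

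The genes did not move as a group. Over their 21 pairs, Pearson's r across the 16 values of tissue and gilt ranged from -0.79 for TYROBP and IL12RB2 to 0.86 for CCR9 and IL12RB2, with a median of 0.11 and 13 pairs above 0. LY49 and TLR10 had r = 0.84. These values share gilts, arrays and a sum of 0 within each gilt, so they are descriptions only. Of all 15753 pairs of named rows, 98.3% had a lower r than LY49 and TLR10, and 98.7% a lower r than CCR9 and IL12RB2. After the tissue means were removed, the deviations of single gilts had r = 0.86 for LY49 and TLR10 and 0.52 for CCR9 and IL12RB2. Pairs with r near 0 over the 16 values reached a similar size to the latter, with 0.56 for CD4 and LY49 and 0.55 for CD4 and PDCD1LG2. The lowest was -0.65 for TYROBP and IL12RB2. No share over all named pairs was computed for deviations. In brain stem both LY49 and TLR10 were highest in gilt 3 and next highest in gilt 4, and in liver both were below 0 in these gilts.

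**Figure D4:**
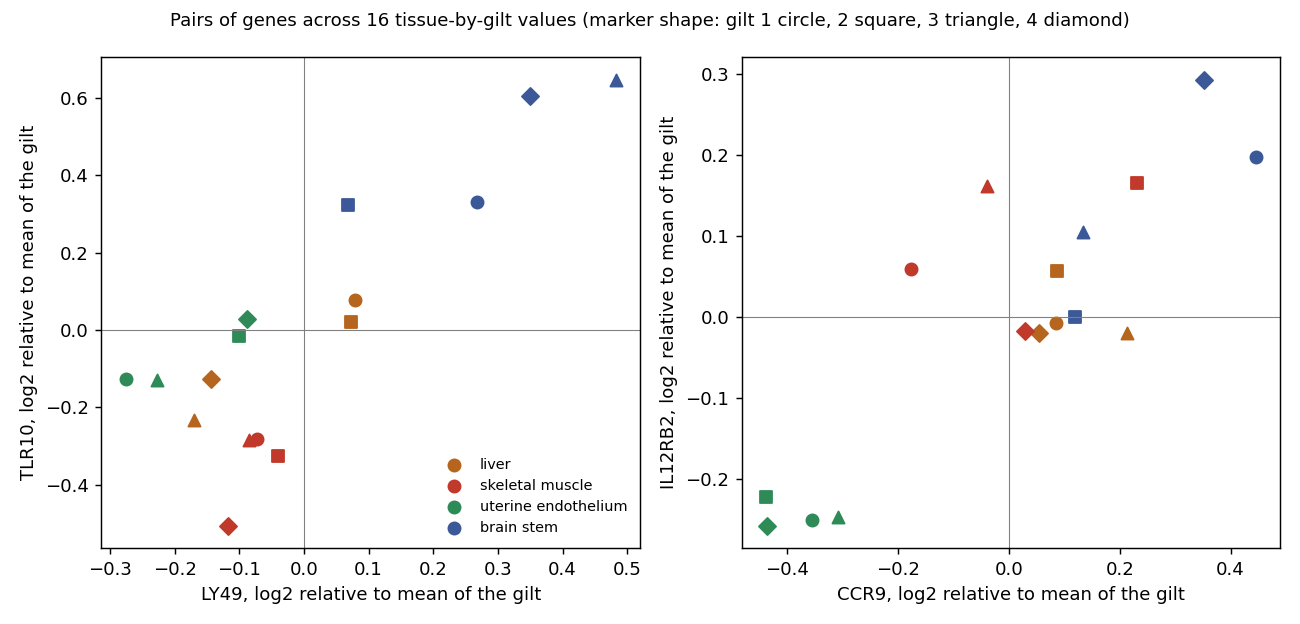
Values of LY49 and TLR10 (left) and of CCR9 and IL12RB2 (right) in each tissue and gilt, log2 relative to the mean of the gilt, with colours for tissues and shapes for gilts. On the left the 4 brain stem points lie above the other 12 on the TLR10 axis (at least 0.32), and the 4 points of uterine endothelium on the right lie below the other 12 on the CCR9 axis (at most -0.31).

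Among the other 177 named rows, the 3 with the highest r over the 16 values were named for each gene. TLR10 was most like IFNA1 (0.92), ODF1 (0.90) and IL21 (0.88), that is an interferon, a sperm tail protein and a cytokine. LY49 was most like IL21 (0.89), LALBA (0.87) and TLR10 (0.84), the second being a milk protein. CCR9 was closest to IL12RB2 (0.86), ESR2 (0.82) and ITGA2B (0.82), and IL12RB2 to ITGA2B (0.93), PRM1 (0.88) and CCR9 (0.86), where ITGA2B is the platelet integrin chain, ESR2 an oestrogen receptor and PRM1 a sperm protamine. TYROBP was most like PSMB8 (0.81), PSME1 (0.71) and S100A11 (0.71), an immunoproteasome subunit, a proteasome activator and a calcium-binding protein. CD4 was most like ADIG (0.84), CYP8B1 (0.79) and TNFSF8 (0.79). The closest for PDCD1LG2 reached less, with PDZD11 (0.67), PLCZ1 (0.66) and GAD1 (0.60). PLCZ1 is a sperm phospholipase and GAD1 makes the neurotransmitter GABA. Rows of sperm or milk genes thus stood beside immune genes among the nearest rows of TLR10, LY49 and IL12RB2.

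Other leukocyte surface and signalling genes with a named row were CCR2, CXCR6, XCR1, IL18R1, FAS, HRH4, CYBA, ITGA2B and ITGB1. The list of 214 also held the 7 genes described, which are left out of these 9. Of the 9, 7 passed the F test, against 61.2% of all rows and 130 of the 178 named rows. Their median range was 0.49, against 0.37 over all rows and 0.40 over the named rows. HRH4, a histamine receptor, was highest in liver at 0.86 ± 0.39 (SD, n = 4), and CYBA was highest in uterine endothelium. ITGA2B was lowest in uterine endothelium at -0.29 ± 0.059, as CCR9 and IL12RB2 were. Of these 9, 2 were higher and 2 lower in liver than in brain stem, against 21.1% and 16.5% of all rows. In uterine endothelium 2 were higher and 2 lower than in brain stem, against 22.7% and 19.1%. Liver minus uterine endothelium had 3 higher and 1 lower, against 12.1% and 11.8%. Liver minus skeletal muscle had 2 and 0, against 13.3% and 12.8%. Skeletal muscle minus brain stem had 1 and 3, against 21.4% and 17.7%. Skeletal muscle minus uterine endothelium had 1 and 1, against 13.3% and 13.1%. With 9 genes these counts are a description. The chemokine receptors CCR2 and CXCR6 had their highest means in brain stem, at 0.17 ± 0.14 and 0.30 ± 0.23, without passing as highest there, and XCR1 did not pass the F test (limma adjusted p = 0.27). CCL25, PD-1, the IL-12 chains, IL12RB1 and TLR1, TLR2 and TLR6, the partners of the genes described, were on the lists searched. No row carried their symbols, so they could not be described. Genes of these lists with a range under 1 were chosen for naming after their values were seen.

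Cytokines, chemokines and interferons had 11 named rows (of 87 listed). Of these 8 passed the F test, against 61.2% of all rows and 130 of the 178 named rows. CCL27 (0.25 ± 0.15, SD) and IFNB1 (0.14 ± 0.083) were highest in skeletal muscle, against 7.11% of all rows. Another 3 of the 11 were highest in brain stem, against 9.7%. LTA, or lymphotoxin alpha, stood at 1.17 ± 0.22 (SD, n = 4) there, IFNA1 at 0.91 ± 0.16 and IL17A at 0.35 ± 0.11. The type I interferon IFN-DELTA-1 had its highest mean in brain stem as well, at 0.75 ± 0.54, without passing as highest. IL1A was highest in liver at 0.87 ± 0.053 and lowest in brain stem at -0.82 ± 0.13. Among 10 genes of antigen presentation and innate defence (of 77 listed) 9 passed, against the same 61.2% and the same 130 of 178 named rows. CRP, MBL2 and FCN1 were highest in liver, against 7.1% of all rows, and PSME1 and PSMB8 in uterine endothelium, against 5.72%. PGLYRP2 was highest in brain stem (0.60 ± 0.098), against 9.7%, and PR39 in skeletal muscle (0.53 ± 0.11), against 7.11%. PSMB8, the row most like TYROBP, stood at 0.75 ± 0.19 in uterine endothelium, and PSME1 at 1.16 ± 0.19.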

How the data were processed

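RNA of 4 tissues from 4 gilts was measured on 16 arrays with 2 dyes. The authors deposited 20736 log ratios per array, none missing, which are taken as log2 values because the largest size, 10.42, would be implausible as a natural log. How the spots were scanned, corrected and normalized, and the base and direction of the ratio, is not given in the sources used here. Least squares turned the 4 ratios of each loop into 4 tissue values. limma 3.58.1 (R 4.3.3) fitted all rows, with a fixed block for gilt that left 9 residual degrees of freedom, default moderation, two-sided tests and Benjamini-Hochberg adjustment over all rows at 0.05. The labels name the gilt of each array, which is the basis of the block. The fit was tested on simulated data. Symbols came from the platform annotation (178 rows, 175 genes, 0 with several symbols), and all 7 genes matched the reference gene table by identifier. The files name no genome build, so no positions are given. Genes named beyond the 7 are the 3 most alike rows of each, and from each list of markers or of immune genes those with the largest ranges and those set beside a result. The members and lists were chosen with earlier results of these data known. Alternatives were scaled arrays, quantile normalization, centring of tissues on their most frequent value, a random gilt block or none, robust and trended moderation, rows of small SD left out, the preceding row subtracted, and each gilt left out. The 4 tissue values of a gilt sum to 0 by construction, and the random block had a correlation of -0.32 within gilts. Its residual degrees of freedom ignore that constraint, so its calls are no independent check.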

Additional observations from a re-analysis of the deposited data

Results flagged for a closer look

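Among the 28 values of 7 genes in 4 tissues, 2 had 1 gilt standing apart, by the distance to its neighbour as a share of the spread from lowest to highest gilt, which happens by chance in about 1 in 20. IL12RB2 in liver stood at 0.057 in gilt 2, against -0.020 to -0.0072 in the other gilts (ratio 0.833). PDCD1LG2 in skeletal muscle stood at -0.27 in gilt 1, against -0.16 to -0.14 in the other gilts (ratio 0.889).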

How the results depend on the processing

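Of 528 pairwise values of the 7 genes under 13 alternatives, 459 kept their direction and side of the threshold, 33 lost their call (31 of them with a gilt left out, which also lowers the number of samples), 22 gained one and 14 changed sign; of 88 F tests 79 kept their call and 9 lost it, all 9 without a gilt. Of 352 tissue values 346 moved by less than the SD between gilts. The number of the 7 genes past the F test was 4 to 5 without 1 gilt, where 8870 to 10951 rows of the whole table passed. It was 4 with rows of small SD left out, which dropped CD4, IL12RB2 and PDCD1LG2 before the fit and left 9227 rows passing. It was 7 with no replicate block and 7 with gilt as a random block, with 14503 and 15382 rows passing. The main fit had 12699 rows. Genes past the threshold in liver minus skeletal muscle were 3 with scaled arrays or quantile normalization, 3 with a random block, 2 with no gilt block or with a trended prior and 0 to 1 without 1 gilt. The whole table moved as well for that pair, from 5408 rows called in the main fit. Scaled arrays gave 6592, quantile normalization 6448 and a random block 6898. No gilt block gave 6516, a trended prior 5797 and leaving out 1 gilt 3683 to 4398. With rows of small SD left out the genes past the threshold were 1 for liver minus uterine endothelium and 2 for skeletal muscle minus uterine endothelium. In that setting 4078 and 4201 rows were called for these pairs, against 4969 and 5475 in the main fit. Without 1 gilt the genes past the threshold were 1 to 2 for liver minus brain stem and 1 to 2 for liver minus uterine endothelium. They were 1 to 3 for skeletal muscle minus brain stem and 2 in each case for skeletal muscle minus uterine endothelium. Rows called over the whole table without 1 gilt were 5385 to 6496 for liver minus brain stem, against 7796 with all gilts. Liver minus uterine endothelium had 2785 to 3978 (4969 with all gilts) and skeletal muscle minus brain stem 5827 to 6746 (8103). Skeletal muscle minus uterine endothelium had 3103 to 4487 (5475) and uterine endothelium minus brain stem 5611 to 7849 (8662). The dye effect had 4 to 45, against 202 with all gilts. Sign changes concerned differences between -0.056 and 0.025 with all gilts. CD4, uterine endothelium minus brain stem, was 0.040 with the most frequent value as centre, 0.0055 with no gilt block, 0.052 with the preceding row subtracted and -0.074 to 0.078 without 1 gilt, above 0 without gilt 3. IL12RB2, skeletal muscle minus brain stem, was -0.13 to 0.028 without 1 gilt, above 0 without gilt 4. PDCD1LG2 was -0.012 with the preceding row subtracted in liver minus brain stem, and -0.031 to 0.12 without 1 gilt in liver minus uterine endothelium, below 0 without gilt 3 (-0.031) or 4 (-0.027). In uterine endothelium minus brain stem it was -0.057 to 0.059 without 1 gilt, below 0 without gilt 1 or 2 (-0.023), and -0.25 with the preceding row subtracted, the one of these that passed the test. TLR10, liver minus uterine endothelium, was 0.015 with quantile normalization and -0.076 to 0.045 without 1 gilt, above 0 without gilt 3 (0.028) or 4. Why these values changed was not tested. Spot intensities were not used here, so signal over background sets no limit that could be stated.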

Other observations

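Named immune and surface genes outside the lists, picked after their names and some of their values were seen, were SIGLEC1, ULBP1, CYSLTR2, TNFSF8, CD1.1, MADCAM1 and CD46. Of these 7, 4 passed the F test of limma, against 61.2% of all rows and 130 of the 178 named rows. TNFSF8, the CD30 ligand, was lowest in brain stem, with 0.26 ± 0.043 in liver and -0.28 ± 0.095 in brain stem (SD, n = 4), and was among the 3 rows most like CD4. CD1.1, a lipid-presenting molecule, had its highest mean in skeletal muscle (0.19 ± 0.063), and CYSLTR2, a leukotriene receptor, and MADCAM1, which binds lymphocytes homing to the gut, had theirs in liver (0.14 ± 0.075 and 0.14 ± 0.092), with no call of highest. SIGLEC1, a macrophage lectin, did not pass (limma adjusted p = 0.053), with -0.12 ± 0.053 in liver and 0.10 ± 0.13 in brain stem, nor did CD46 (limma adjusted p = 0.15) or ULBP1 (limma adjusted p = 0.85).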
